A study of Homo sapiens with 3 samples.

Results

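The mitotic G2/M genes are 47 genes whose products build and run mitosis, chosen by name from the 19225 gene symbols of the deposited table. Each gene stands for its most counted transcript, summing the 3 libraries. RNA was sequenced from 5637 cells, an established human bladder cancer line labelled as wild type: 2 libraries came from cells transfected by lipid reagent with siRNA against CDCA3 (siCDCA3-1 and siCDCA3-2) and 1 from cells given the control siRNA (siNC). The series was designed to find genes that act downstream of CDCA3, a cell division cycle associated gene. From the labels it cannot be learned if the suffixes 1 and 2 mark different siRNAs or repeat cultures, nor when the cells were harvested, and siNC has no replicate. Values are therefore given per library, and any p-value measures only the spread between the siCDCA3 libraries, which may be technical.

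The genes described here are switched on together late in the cell cycle. Cyclins A and B with their kinase CDK1 drive the cell into mitosis, polo-like and aurora kinases and kinesin motors build the spindle, the kinetochore holds chromosomes to it under the watch of the spindle checkpoint, and the anaphase-promoting complex then destroys cyclin B and securin so that the cell can divide. In proliferating cells their promoters are held off early in the cycle by the DREAM complex and activated later by MuvB with MYBL2 and FOXM1, through a short element called the CHR and through CCAAT boxes bound by NF-Y. Their RNA is therefore widely used as a sign of proliferation, in bladder tumours as elsewhere.

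Because these promoters are known for shared elements, the sequence of the members was examined first. Promoter windows of RefSeq (GRCh38.p14), from 250 bases before to 50 bases after each start, were found for 39 of the 47 members. The letters TTTGAA, a common form of the CHR, stood on either strand in 27 of the 39 (69.2%), against 12.8% of 8066 genes tested with a window and 18.2% of all 27305 genes with one. CCAAT on either strand stood in 29 of the 39 members (74.4%), against 43.5% of genes tested and 39.7% of all genes. Both motifs were found in 21 members (53.8%), against 7.19% of genes tested, with matches counted whether or not they overlap. Within the last 100 bases before the start, TTTGAA began in 17 of the 39 members (43.6%), against 4.14% of genes tested and 6.08% of all genes with a window. CCAAT began there in 26 of the 39 (66.7%), against 27% of genes tested and 21.9% of all genes. A match is a description of the letters and not evidence of binding. Below are the 100 bases before the start, 5′ to 3′ on the gene's strand, for a cyclin pair and a kinase of mitotic entry and for 3 members at the edges of the response described later. Capitals mark TTTGAA and CCAAT on either strand, so that the reverse complements TTCAAA and ATTGG are also in capitals.
CCNA2: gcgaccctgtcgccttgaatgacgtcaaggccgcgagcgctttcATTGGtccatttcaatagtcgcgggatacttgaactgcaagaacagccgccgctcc
CCNB2: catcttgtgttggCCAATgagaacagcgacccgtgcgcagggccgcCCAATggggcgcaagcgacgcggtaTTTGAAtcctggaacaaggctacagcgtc
PLK1: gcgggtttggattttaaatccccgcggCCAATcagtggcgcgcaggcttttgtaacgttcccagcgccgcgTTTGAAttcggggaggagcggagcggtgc
ANLN: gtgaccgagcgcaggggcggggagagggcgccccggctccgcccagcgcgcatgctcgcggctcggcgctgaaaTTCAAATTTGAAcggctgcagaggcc
PTTG1: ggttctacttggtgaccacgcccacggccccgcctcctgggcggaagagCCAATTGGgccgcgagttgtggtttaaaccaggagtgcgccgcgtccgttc
KIF20A: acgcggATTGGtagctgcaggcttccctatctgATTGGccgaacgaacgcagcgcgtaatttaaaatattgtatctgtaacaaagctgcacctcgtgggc
These stretches lie at chr4:121823884-121823983 (- strand) for CCNA2, chr15:59105046-59105145 (+ strand) for CCNB2, chr16:23678789-23678888 (+ strand) for PLK1, chr7:36389762-36389861 (+ strand) for ANLN, chr5:160421755-160421854 (+ strand) for PTTG1 and chr5:138179012-138179111 (+ strand) for KIF20A. For PTTG1, which has 2 listed starts, the upstream one was used. CCNB2 and PLK1 have the pairing of CCAAT upstream and TTTGAA close to the start, ANLN has TTTGAA in both orientations side by side and no CCAAT, and CCNA2, PTTG1 and KIF20A have CCAAT without TTTGAA in this stretch. Other forms of the CHR were not searched for, so a promoter without TTTGAA may still hold a CHR.

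The siRNA target was low in both treated libraries. The transcript of CDCA3 (NM_031299.6, GRCh38 chromosome 12, 6844798 to 6851286) was measured at 0.574 RPKM in siCDCA3-1 and 1.40 RPKM in siCDCA3-2, against 5.52 RPKM in siNC. Relative to siNC this was a ratio of 0.104 (0.0845 to 0.126) in siCDCA3-1 and 0.253 (0.226 to 0.283) in siCDCA3-2, where the brackets hold exact 95% binomial intervals that cover counting error only. The counts behind it were 108 in siCDCA3-1 and 406 in siCDCA3-2, against 1303 in siNC. The edgeR fit described below gave a log2 fold change of -2.50 with a standard error of 0.67, with an unadjusted p of 0.00246 and an adjusted p of 0.9997. All 10 epithelial and urothelial markers examined reached an RPKM of 1 in at least 1 library, with a summed RPKM of 2205 in siCDCA3-1 and 1803 in siCDCA3-2, against 2627 in siNC. Of 5 leukocyte markers 1, CD68, reached an RPKM of 1, and the summed level was 2.68 RPKM in siCDCA3-1 and 1.38 RPKM in siCDCA3-2, against 1.95 RPKM in siNC, with PTPRC and CD3E near or at 0. Of 4 endothelial markers 0 reached it, with a summed level of 0.104 RPKM in siCDCA3-1 and 0.0700 RPKM in siCDCA3-2, against 0.0337 RPKM in siNC. Of 5 fibroblast markers 2, COL1A1 and LUM, reached an RPKM of 1. LUM did so only in siCDCA3-1, with 1.47 RPKM there and 0.00294 RPKM in siCDCA3-2, against 0.123 RPKM in siNC. The 5 fibroblast markers summed to 10.0 RPKM in siCDCA3-1 and 2.36 RPKM in siCDCA3-2, against 7.23 RPKM in siNC, mostly from COL1A1. Their part in the results was not tested. Gene-level counts were 40420563 in siCDCA3-1 and 62389922 in siCDCA3-2, against 50912733 in siNC, and the least counted member had 718, 1995 and 1540 counts in those libraries.

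Most members were lower than siNC in siCDCA3-1 and higher than siNC in siCDCA3-2. In siCDCA3-1, 42 of 47 members lay below siNC, where 58.6% of the 10153 genes tested did so. In siCDCA3-2, 43 of 47 lay above siNC, against 54.4% of genes tested. The median difference in log2(RPKM + 1) was -0.35 in siCDCA3-1 and 0.31 in siCDCA3-2, beside medians of -0.07 and 0.05 over all genes tested. Summed over the members, RPKM was 583 in siCDCA3-1 and 957 in siCDCA3-2, against 767 in siNC. Genes tested are those that averaged 1 RPKM or more across the libraries, and all 47 members passed that minimum. In RNA from a bulk culture, fewer cells in G2 and mitosis cannot be told apart from less RNA per cell.

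The size of the shift was modest in most members. A difference of 1.5-fold or more on the log2(RPKM + 1) scale was found below siNC for 10 of 47 members in siCDCA3-1 (7.22% of genes tested) and above siNC for 7 of 47 in siCDCA3-2 (9.6% of genes tested). The reverse, 1.5-fold higher in siCDCA3-1 (3.92% of genes tested) or lower in siCDCA3-2 (9.63% of genes tested), was found for 0 members. At 2-fold on the same scale, 0 members were lower (1.74% of genes tested) or higher (0.847% of genes tested) in siCDCA3-1. In siCDCA3-2 1 member, ANLN, was higher by 2-fold (1.42% of genes tested) and 0 were lower (3.27% of genes tested). As a plain ratio to siNC, CENPE was past 2-fold in siCDCA3-1, at 0.474 (0.443 to 0.507), a measure to which the shares at 2-fold above do not apply. Counting error was small by comparison: the 95% counting interval of the ratio to siNC lay wholly below 1 for 40 members in siCDCA3-1 (49% of genes tested) and wholly above 1 for 42 members in siCDCA3-2 (48.2% of genes tested). In the opposite direction it lay above 1 for 5 members in siCDCA3-1 (32.7% of genes tested) and below 1 for 1, TOP2A, in siCDCA3-2 (39% of genes tested). The interquartile range of the differences was -0.52 to -0.18 for members in siCDCA3-1, against -0.29 to 0.14 for all genes tested, and 0.17 to 0.51 in siCDCA3-2, against -0.25 to 0.32 for all genes tested.

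**Figure D1:**
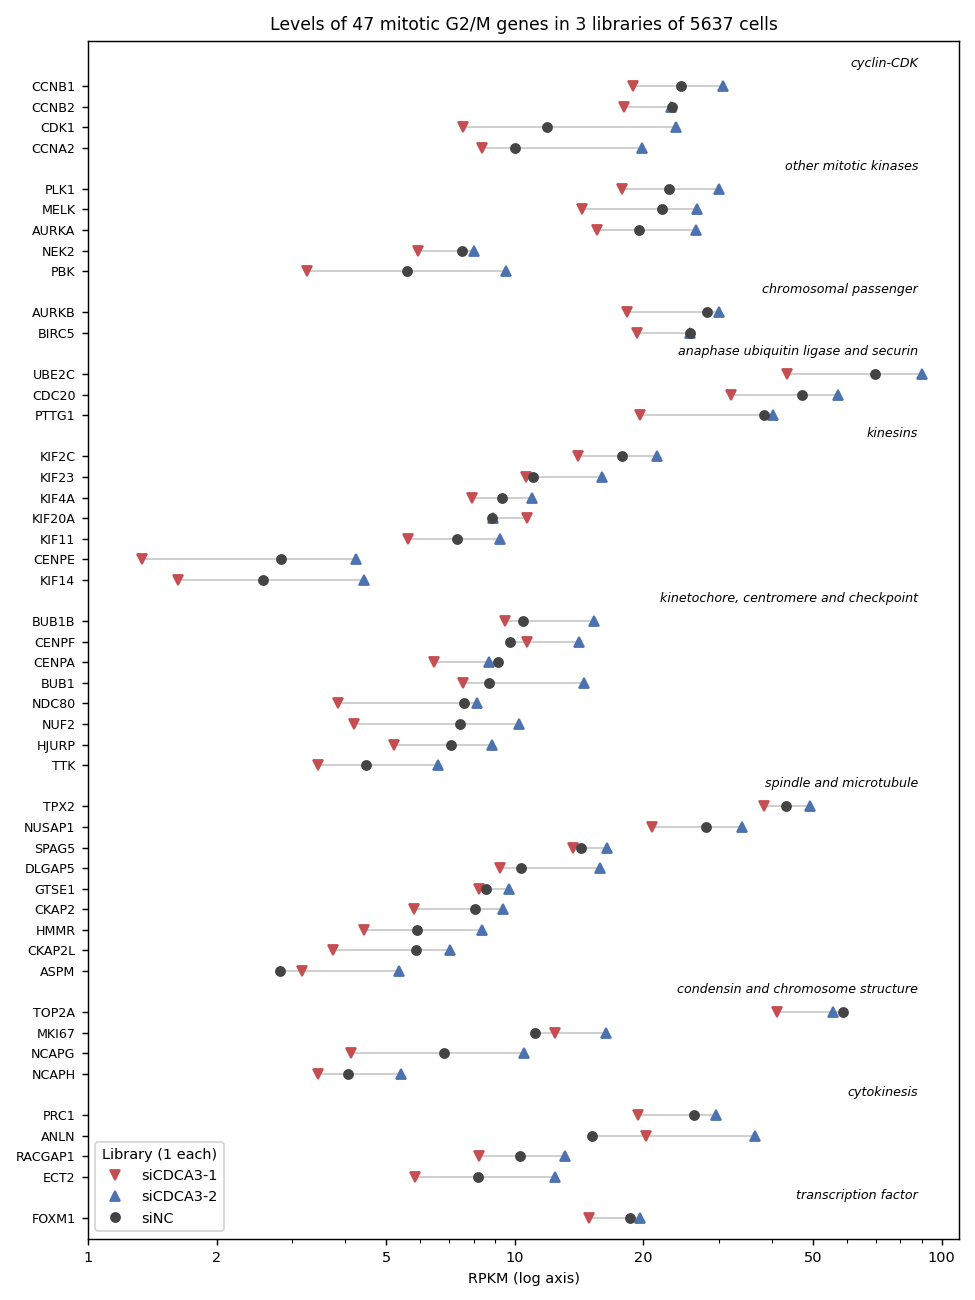
Level of each of the 47 mitotic G2/M genes in RPKM (log axis), grouped by role, with 1 symbol per library (downward triangle siCDCA3-1, upward triangle siCDCA3-2, circle siNC). In 38 genes the siNC level lies between a lower siCDCA3-1 level and a higher siCDCA3-2 level.

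A test of siCDCA3 against siNC over all genes called no member. By the quasi-likelihood test of edgeR, adjusted after Benjamini and Hochberg, 0 of 47 members passed an adjusted p of 0.05, and 0 had an unadjusted p under 0.05. Of all genes tested, 0.0295% were called lower and 0% higher, and 1.32% had an unadjusted p under 0.05. DESeq2 and limma also called 0 members, with 0 at an unadjusted p under 0.05 in each. The adjusted p was 0.9997 for every member, and the lowest unadjusted p was 0.127, for ANLN. This test averages the siCDCA3 libraries, leaves 1 residual degree of freedom and assumes that the lone siNC library varies as they do, so it does not show that the members were unchanged.

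Set directly against each other, without siNC, the siCDCA3 libraries differed in nearly every member. In siCDCA3-2, 46 of 47 members were higher than in siCDCA3-1, where 57.8% of genes tested were, with KIF20A as the exception. The median difference, siCDCA3-2 minus siCDCA3-1, was 0.67 in log2(RPKM + 1) for members and 0.10 for all genes tested. On the log2(RPKM + 1) scale, 30 of 47 were higher by 1.5-fold or more (17.6% of genes tested). By 2-fold or more on that scale 8 of 47 were higher (4.9% of genes tested) and 0 were lower (3.72% of genes tested). The 8 were CDK1, PBK, NCAPG, CENPE, CCNA2, NUF2, KIF14 and UBE2C. As plain ratios of siCDCA3-2 to siCDCA3-1, ECT2 at 2.13 (2.03 to 2.22), NDC80 at 2.12 (1.97 to 2.29) and PTTG1 at 2.05 (1.94 to 2.17) also passed 2-fold. The share of 4.9% of genes tested is on the log2(RPKM + 1) scale and does not apply to plain ratios. The counting interval of the ratio of siCDCA3-2 to siCDCA3-1 lay wholly above 1 for 46 members (51.9% of genes tested). With 1 library on each side this comparison has no test. TMM scaling moved siCDCA3-1 up by 0.07 and siCDCA3-2 down by 0.07 on the log2 scale for all genes alike, and left 46 members higher in siCDCA3-2, with a median of 0.54. The share of 57.8% of genes tested was counted before that scaling.

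The siCDCA3-2 difference tended to be lower in transcripts of higher GC content, and the siCDCA3-1 difference slightly higher. The members' transcripts had a median GC content of 43.2%, against 50.4% for genes tested, and a median length of 3189 bases, against 3090. Across the 41 members with a GC value, Spearman's rho between GC content and the siCDCA3-2 difference was -0.49, and across all genes tested with a value it was -0.38. For the siCDCA3-1 difference rho was 0.15 across these members and 0.12 across all genes tested with a value. These correlations are descriptions across genes that share the same libraries. After the median of genes in the same bin of GC content and length was subtracted, the members' median was -0.20 in siCDCA3-1 and 0.18 in siCDCA3-2, with 33 of 41 lower and 31 of 41 higher, and the median of siCDCA3-2 minus siCDCA3-1 was 0.38. By construction the subtraction leaves about as many genes tested with a GC value above 0 as below it. The shares over all genes given earlier therefore do not apply to counts under it. That correction was chosen after the data were seen, and the part of GC content in the result was not tested. Under it the siCDCA3-1 difference changed direction for KIF23, DLGAP5 and GTSE1, and the siCDCA3-2 difference for NEK2, BIRC5, PTTG1, KIF11, KIF20A, NDC80, NUSAP1 and CKAP2. For siCDCA3-2 minus siCDCA3-1, 38 of 41 members were still higher, and CCNB2 and NEK2 joined KIF20A below 0, at -0.002 and -0.08.

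**Figure D2:**
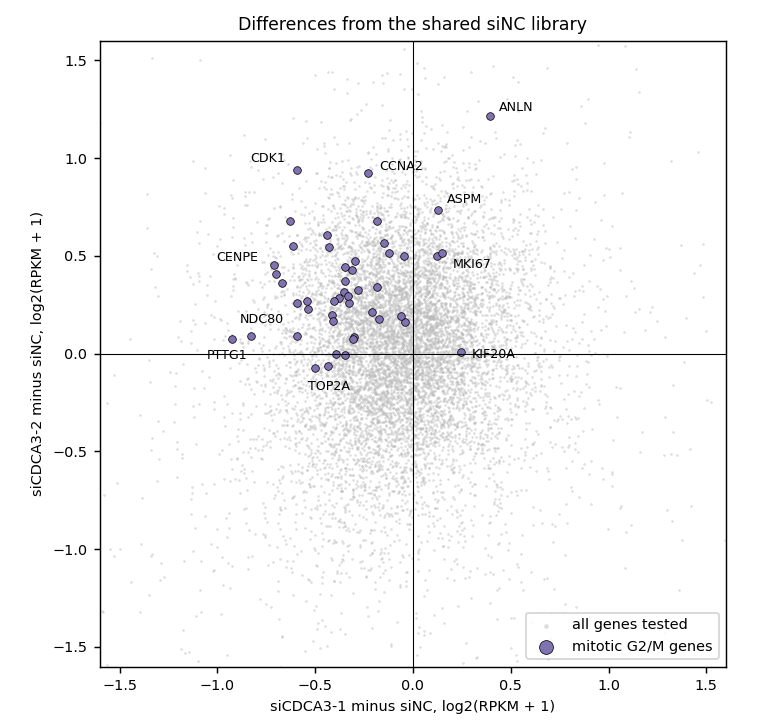
Difference from siNC in log2(RPKM + 1) for siCDCA3-1 (horizontal) and siCDCA3-2 (vertical), with all 10153 genes tested in grey and the 47 members in purple. Both axes use the same siNC library, 146 genes outside 1.6 on either axis are not drawn, and 38 members lie in the upper left, below siNC in siCDCA3-1 and above it in siCDCA3-2.

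Before the GC and length correction, cyclins and CDK1 had the highest median of the 10 roles in siCDCA3-2, 0.62, beside -0.35 in siCDCA3-1. In siCDCA3-1 4 of 4 were lower, and in siCDCA3-2 3 of 4 were higher, with differences from -0.004 for CCNB2 to 0.94 for CDK1. After that correction the cytokinesis genes with a GC value, PRC1 at 0.02 and ANLN at 0.99, had the higher median in siCDCA3-2. CDK1, the kinase that starts mitosis (NM_001786.4, GRCh38 chromosome 10, 60778331 to 60794852), had 7.55 RPKM in siCDCA3-1 and 23.8 RPKM in siCDCA3-2, against 11.9 RPKM in siNC. Its level was highest in siCDCA3-2 and lowest in siCDCA3-1. The ratio to siNC was 0.634 (0.596 to 0.675) in siCDCA3-1 and 2.00 (1.91 to 2.08) in siCDCA3-2. CCNA2, cyclin A of S phase and G2 (NM_001237.4, GRCh38 chromosome 4, 121816444 to 121823883), had 8.39 RPKM in siCDCA3-1 and 19.8 RPKM in siCDCA3-2, against 9.99 RPKM in siNC. Here siCDCA3-2 stood well above the other libraries, with ratios to siNC of 0.839 (0.797 to 0.883) in siCDCA3-1 and 1.98 (1.91 to 2.06) in siCDCA3-2. CCNB1, the main mitotic cyclin (NM_031966.3, GRCh38 chromosome 5, 69167150 to 69178245), had 18.9 RPKM in siCDCA3-1 and 30.7 RPKM in siCDCA3-2, against 24.5 RPKM in siNC, with ratios of 0.773 (0.744 to 0.803) in siCDCA3-1 and 1.25 (1.22 to 1.29) in siCDCA3-2. CCNB2, a second B-type cyclin (NM_004701.3, GRCh38 chromosome 15, 59105146 to 59125045), had 18.1 RPKM in siCDCA3-1 and 23.2 RPKM in siCDCA3-2, against 23.3 RPKM in siNC, so that only siCDCA3-1 stood apart from siNC among its 3 values. The ratio of CCNB2 in siCDCA3-2 was 0.997 (0.959 to 1.04), an interval that includes 1. The fitted log2 fold changes of siCDCA3 against siNC were 0.37 with a standard error of 0.60 for CDK1, 0.48 with a standard error of 0.56 for CCNA2, 0.01 with a standard error of 0.51 for CCNB1 and -0.17 with a standard error of 0.48 for CCNB2, each with an edgeR adjusted p of 0.9997. The exons of CCNA2 overlap those of EXOSC9 on the other strand, and the labels do not state whether reads were counted by strand.

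Other mitotic kinases were all lower in siCDCA3-1 and higher in siCDCA3-2 than in siNC, 5 of 5 each way, with median differences of -0.35 and 0.37. PLK1, the polo-like kinase of centrosomes and kinetochores, had 17.9 RPKM in siCDCA3-1 and 30.01 RPKM in siCDCA3-2, against 23.01 RPKM in siNC. AURKA, which matures centrosomes, had 15.6 RPKM in siCDCA3-1 and 26.6 RPKM in siCDCA3-2, against 19.5 RPKM in siNC. NEK2, which separates centrosomes, had 5.91 RPKM in siCDCA3-1 and 8.02 RPKM in siCDCA3-2, against 7.51 RPKM in siNC, the smallest distance between the siCDCA3 libraries in this role. MELK, a kinase of proliferating cells, had 14.4 RPKM in siCDCA3-1 and 26.7 RPKM in siCDCA3-2, against 22.2 RPKM in siNC. PBK, a kinase active in mitosis, had 3.26 RPKM in siCDCA3-1 and 9.52 RPKM in siCDCA3-2, against 5.58 RPKM in siNC, and its ratio of siCDCA3-2 to siCDCA3-1 was 2.92 (2.69 to 3.17).

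The 2 chromosomal passenger genes among the members, AURKB and BIRC5, differed from siNC mainly in siCDCA3-1. AURKB, the kinase of the passenger complex that corrects faulty spindle attachments, had 18.3 RPKM in siCDCA3-1 and 30.00 RPKM in siCDCA3-2, against 28.1 RPKM in siNC. BIRC5, which encodes survivin and anchors the complex at centromeres, had 19.3 RPKM in siCDCA3-1 and 25.7 RPKM in siCDCA3-2, against 25.7 RPKM in siNC. Both siCDCA3-2 levels lay near siNC, with a BIRC5 ratio of 1.00 (0.972 to 1.03). Of the kinetochore and checkpoint partners measured outside the members, INCENP had ratios to siNC of 0.896 in siCDCA3-1 and 1.30 in siCDCA3-2. CDCA8 had ratios of 0.673 in siCDCA3-1 and 1.07 in siCDCA3-2.

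The anaphase group held the most abundant member and the one with the lowest siCDCA3-1 difference from siNC in log2(RPKM + 1). UBE2C, the ubiquitin-conjugating enzyme of the anaphase-promoting complex, had 43.4 RPKM in siCDCA3-1 and 89.8 RPKM in siCDCA3-2, against 69.6 RPKM in siNC, the highest level among the 47 members in all 3 libraries. CDC20, the activator of that complex, had 32.03 RPKM in siCDCA3-1 and 57.01 RPKM in siCDCA3-2, against 47.1 RPKM in siNC. PTTG1, which encodes securin, the guard of sister chromatid cohesion (NM_004219.3, GRCh38 chromosome 5, 160421855 to 160428744), had 19.7 RPKM in siCDCA3-1 and 40.3 RPKM in siCDCA3-2, against 38.3 RPKM in siNC. The PTTG1 difference of -0.92 in log2(RPKM + 1) was the lowest of all members in siCDCA3-1, with a ratio of 0.514 (0.485 to 0.546), while its siCDCA3-2 level lay close to siNC with a ratio of 1.05 (1.01 to 1.10). PTTG1 has near-identical copies in the genome, so its counts are uncertain. All 3 genes were lower in siCDCA3-1 and higher in siCDCA3-2 than in siNC, with medians of -0.67 and 0.27.

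Kinesins, the motors that move along spindle microtubules, were lower than siNC in siCDCA3-1 in 6 of 7 cases and higher in siCDCA3-2 in 7 of 7, with medians of -0.33 and 0.30. CENPE, which carries chromosomes to the spindle equator (NM_001813.2, GRCh38 chromosome 4, 103105811 to 103198343), had 1.34 RPKM in siCDCA3-1 and 4.24 RPKM in siCDCA3-2, against 2.83 RPKM in siNC. Its ratio to siNC was 0.474 (0.443 to 0.507) in siCDCA3-1, the lowest ratio of any member. In siCDCA3-2 its ratio was 1.499, with an interval of 1.44 to 1.57. The pseudocount of 1 makes its log2 difference smaller than that of PTTG1. KIF14, a kinesin of cytokinesis, had 1.63 RPKM in siCDCA3-1 and 4.43 RPKM in siCDCA3-2, against 2.56 RPKM in siNC, a spread like that of CENPE at a similarly low level. KIF11, which pushes spindle poles apart, had 5.62 RPKM in siCDCA3-1 and 9.22 RPKM in siCDCA3-2, against 7.32 RPKM in siNC. Its steps on either side of siNC were of similar size. KIF2C, which takes microtubules apart at centromeres, had 14.04 RPKM in siCDCA3-1 and 21.6 RPKM in siCDCA3-2, against 17.8 RPKM in siNC. KIF4A, a motor on chromosome arms with a near-identical gene copy, had 7.95 RPKM in siCDCA3-1 and 10.97 RPKM in siCDCA3-2, against 9.33 RPKM in siNC. KIF23, a subunit of centralspindlin, had 10.6 RPKM in siCDCA3-1 and 15.99 RPKM in siCDCA3-2, against 11.02 RPKM in siNC, and its siCDCA3-1 direction turned positive when scaled by TMM, by median of ratios or by quantiles.

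KIF20A went against the other kinesins. KIF20A, which brings the passenger complex to the central spindle (NM_005733.2, GRCh38 chromosome 5, 138179112 to 138187723), had 10.6 RPKM in siCDCA3-1 and 8.86 RPKM in siCDCA3-2, against 8.82 RPKM in siNC. The siCDCA3-1 level was the highest of the 3 and siCDCA3-2 lay next to siNC, with ratios to siNC of 1.21 (1.15 to 1.26) in siCDCA3-1 and 1.01 (0.964 to 1.05) in siCDCA3-2. Its siCDCA3-2 difference was below 0 under TMM, median-of-ratios and quantile scaling. The exons of KIF20A overlap those of BRD8 and CDC23 on the other strand, and their part in its counts was not tested.

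Kinetochore, centromere and checkpoint genes were lower than siNC in siCDCA3-1 in 7 of 8 cases and higher in siCDCA3-2 in 7 of 8, with medians of -0.34 and 0.44. NDC80, a core of the microtubule-binding kinetochore complex (NM_006101.2, GRCh38 chromosome 18, 2571557 to 2616635), had 3.85 RPKM in siCDCA3-1 and 8.17 RPKM in siCDCA3-2, against 7.61 RPKM in siNC, the second lowest difference of all members in siCDCA3-1 at -0.83. NUF2, its direct partner, had 4.20 RPKM in siCDCA3-1 and 10.2 RPKM in siCDCA3-2, against 7.46 RPKM in siNC. Both partners were thus lower in siCDCA3-1 than in the other libraries, while in siCDCA3-2 NUF2 had a ratio of 1.37 (1.30 to 1.45) and NDC80 of 1.07 (1.01 to 1.13). BUB1, a checkpoint kinase, had 7.56 RPKM in siCDCA3-1 and 14.5 RPKM in siCDCA3-2, against 8.72 RPKM in siNC. BUB1B, which encodes the checkpoint inhibitor BubR1, had 9.50 RPKM in siCDCA3-1 and 15.3 RPKM in siCDCA3-2, against 10.4 RPKM in siNC, and its exons overlap a read-through gene on the same strand. TTK, the kinase at the head of the checkpoint, had 3.46 RPKM in siCDCA3-1 and 6.60 RPKM in siCDCA3-2, against 4.47 RPKM in siNC. These 3 checkpoint genes had siCDCA3-2 ratios of 1.67 (1.61 to 1.73) for BUB1, 1.47 (1.42 to 1.52) for BUB1B and 1.48 (1.39 to 1.57) for TTK. HJURP, the chaperone that deposits CENPA, had 5.21 RPKM in siCDCA3-1 and 8.85 RPKM in siCDCA3-2, against 7.09 RPKM in siNC. CENPA, the histone that marks centromeres, had 6.47 RPKM in siCDCA3-1 and 8.68 RPKM in siCDCA3-2, against 9.11 RPKM in siNC, below siNC in both siCDCA3 libraries. Its siCDCA3-2 ratio was 0.953 (0.893 to 1.02), an interval that includes 1. CENPF, a large kinetochore protein, had 10.7 RPKM in siCDCA3-1 and 14.2 RPKM in siCDCA3-2, against 9.74 RPKM in siNC, above siNC in both.

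**Figure D3:**
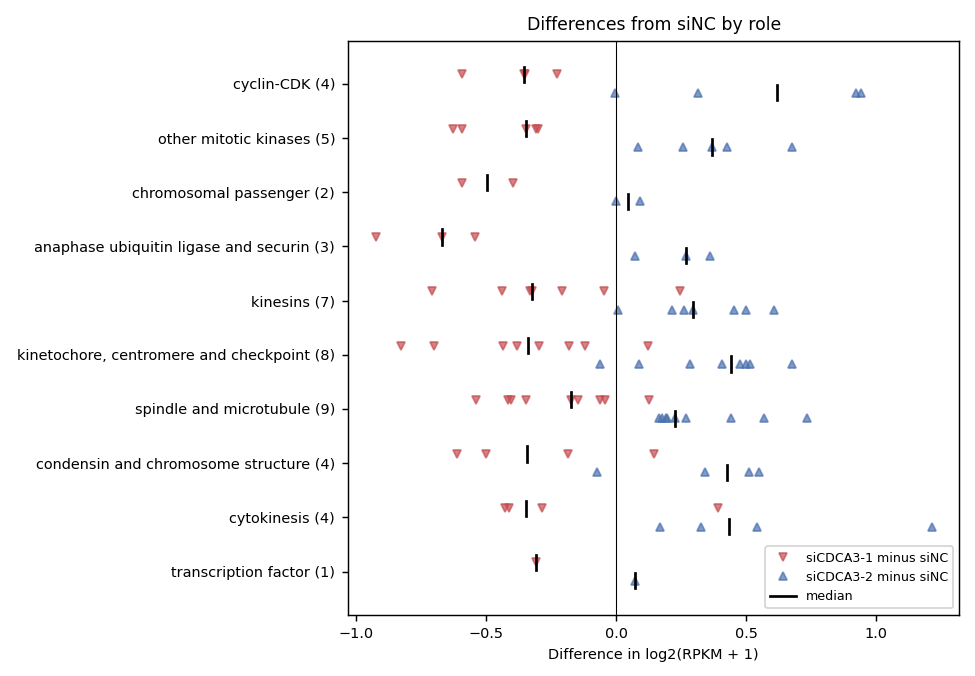
Difference from siNC in log2(RPKM + 1) for each member, by role, with siCDCA3-1 drawn above siCDCA3-2 and a black bar at the median. All 10 roles have a median below 0 in siCDCA3-1 and above 0 in siCDCA3-2, except that the chromosomal passenger genes are below 0 in siCDCA3-2 under TMM and median-of-ratios scaling and the cytokinesis genes above 0 in siCDCA3-1 after the GC and length correction, where 2 of the 4, PRC1 at -0.36 and ANLN at 0.54, have a GC value. By median as drawn, before that correction, anaphase genes are lowest in siCDCA3-1 and cyclin-CDK genes highest in siCDCA3-2.

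Spindle and microtubule genes had the smallest median in siCDCA3-1 among the roles, -0.17, with 8 of 9 lower, and a median of 0.23 in siCDCA3-2 with 9 of 9 higher. TPX2, which activates aurora A on the spindle, had 38.3 RPKM in siCDCA3-1 and 49.02 RPKM in siCDCA3-2, against 43.2 RPKM in siNC. NUSAP1, which bundles spindle microtubules, had 20.96 RPKM in siCDCA3-1 and 34.04 RPKM in siCDCA3-2, against 28.04 RPKM in siNC. DLGAP5, which stabilises microtubules near chromosomes, had 9.23 RPKM in siCDCA3-1 and 15.8 RPKM in siCDCA3-2, against 10.3 RPKM in siNC. For these 3 siNC lay between the siCDCA3 libraries. HMMR, a spindle pole factor, had 4.42 RPKM in siCDCA3-1 and 8.38 RPKM in siCDCA3-2, against 5.89 RPKM in siNC. CKAP2, which promotes microtubule growth, had 5.79 RPKM in siCDCA3-1 and 9.38 RPKM in siCDCA3-2, against 8.05 RPKM in siNC. CKAP2L, its relative, had 3.74 RPKM in siCDCA3-1 and 7.04 RPKM in siCDCA3-2, against 5.88 RPKM in siNC. HMMR, CKAP2 and CKAP2L again had their lowest level in siCDCA3-1 and their highest in siCDCA3-2. SPAG5, which encodes astrin at kinetochores, had 13.7 RPKM in siCDCA3-1 and 16.5 RPKM in siCDCA3-2, against 14.3 RPKM in siNC. GTSE1, a microtubule tip protein, had 8.26 RPKM in siCDCA3-1 and 9.69 RPKM in siCDCA3-2, against 8.54 RPKM in siNC. For SPAG5 and GTSE1 the libraries lay close together, and their siCDCA3-1 difference turned positive under TMM, median-of-ratios and quantile scaling. ASPM, which focuses spindle poles, had 3.18 RPKM in siCDCA3-1 and 5.36 RPKM in siCDCA3-2, against 2.82 RPKM in siNC, above siNC in both siCDCA3 libraries, with a ratio of 1.90 (1.83 to 1.97) in siCDCA3-2.

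Condensin and chromosome structure genes were mixed. NCAPG, a condensin subunit (NM_022346.4, GRCh38 chromosome 4, 17810979 to 17844865), had 4.12 RPKM in siCDCA3-1 and 10.5 RPKM in siCDCA3-2, against 6.83 RPKM in siNC, with a ratio of siCDCA3-2 to siCDCA3-1 of 2.54 (2.42 to 2.67). NCAPH, the subunit that closes the condensin ring, had 3.45 RPKM in siCDCA3-1 and 5.41 RPKM in siCDCA3-2, against 4.05 RPKM in siNC. Both condensin genes had siNC between the siCDCA3 libraries. TOP2A, the enzyme that untangles DNA, had 41.1 RPKM in siCDCA3-1 and 55.6 RPKM in siCDCA3-2, against 58.6 RPKM in siNC, below siNC in both siCDCA3 libraries. MKI67, which coats mitotic chromosomes, had 12.4 RPKM in siCDCA3-1 and 16.3 RPKM in siCDCA3-2, against 11.1 RPKM in siNC, above siNC in both.

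Cytokinesis genes included the member with the highest values relative to siNC in both libraries. ANLN, which encodes the contractile ring scaffold anillin (NM_018685.4, GRCh38 chromosome 7, 36389862 to 36453791), had 20.2 RPKM in siCDCA3-1 and 36.5 RPKM in siCDCA3-2, against 15.2 RPKM in siNC. Both siCDCA3 levels lay above siNC, with ratios of 1.33 (1.30 to 1.37) in siCDCA3-1 and 2.41 (2.35 to 2.46) in siCDCA3-2. The edgeR fit gave it 0.90 with a standard error of 0.55 as log2 fold change, at an adjusted p of 0.9997, and its exons overlap those of KIAA0895 on the other strand. PRC1, which bundles microtubules of the central spindle, had 19.5 RPKM in siCDCA3-1 and 29.6 RPKM in siCDCA3-2, against 26.2 RPKM in siNC. ECT2, which switches on the GTPase of the contractile ring, had 5.84 RPKM in siCDCA3-1 and 12.4 RPKM in siCDCA3-2, against 8.21 RPKM in siNC. RACGAP1, the partner of KIF23 in centralspindlin, had 8.26 RPKM in siCDCA3-1 and 13.1 RPKM in siCDCA3-2, against 10.3 RPKM in siNC. These 3 were lower than siNC in siCDCA3-1 and higher in siCDCA3-2. FOXM1, the transcription factor that activates many of the genes above, had 14.9 RPKM in siCDCA3-1 and 19.7 RPKM in siCDCA3-2, against 18.7 RPKM in siNC, a small step below siNC in siCDCA3-1 and a smaller one above it in siCDCA3-2.

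In 9 members both siCDCA3 libraries lay on the same side of siNC. ANLN, ASPM, CENPF, KIF20A and MKI67 were above it in both, 5 of 47 where 23.6% of genes tested were. BIRC5, CCNB2, CENPA and TOP2A were below it in both, 4 of 47 where 27.8% of genes tested were. In siCDCA3-2 the counting intervals of BIRC5, CCNB2, CENPA and KIF20A included 1, so their side of siNC there is within counting error. In the edgeR fit the log2 fold changes of siCDCA3 against siNC, each at an adjusted p of 0.9997, were 0.37 with a standard error of 0.52 for MKI67, 0.59 with a standard error of 0.51 for ASPM, 0.35 with a standard error of 0.51 for CENPF and 0.16 with a standard error of 0.49 for KIF20A. On the low side they were -0.27 with a standard error of 0.52 for TOP2A, -0.26 with a standard error of 0.53 for CENPA and -0.19 with a standard error of 0.49 for BIRC5. For the members at the edges named above they were -0.36 with a standard error of 0.52 for PTTG1, -0.35 with a standard error of 0.56 for NDC80, -0.04 with a standard error of 0.60 for CENPE, 0.17 with a standard error of 0.63 for PBK and 0.08 with a standard error of 0.56 for NCAPG. Every one of these lay within 2 standard errors of 0. The remaining 38 were lower in siCDCA3-1 and higher in siCDCA3-2, a pattern shown by 30.8% of genes tested, and 0 members had the opposite pattern, shown by 17.8% of genes tested. The siCDCA3-2 differences of BIRC5 and CCNB2 were near 0 and turned positive under quantile scaling. Ranked by level, UBE2C, CDC20, TPX2 and TOP2A were the 4 most abundant members in every library, though in a different order. The 27 members with TTTGAA in their promoter window stood at a median of -0.35 in siCDCA3-1 and of 0.37 in siCDCA3-2, and the 12 with a window but without it at -0.34 and 0.26. For CCAAT, the 29 members with it stood at -0.35 in siCDCA3-1 and 0.30 in siCDCA3-2, and the 10 without it at -0.50 and 0.33. These splits were not tested.

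Other genes listed as G2/M, not all of them parts of the mitotic machinery, were also measured. Of 61 other G2/M genes 60 were tested. Among these 60, 53 were lower than siNC in siCDCA3-1 (58.6% of genes tested) and 48 were higher in siCDCA3-2 (54.4% of genes tested). The medians over all 61 were -0.19 and 0.21. A further 37 genes of G1/S and DNA replication had 27 lower in siCDCA3-1 and 24 higher in siCDCA3-2, nearer to those shares of all genes tested, with medians of -0.14 and 0.13. No gene of either list passed the edgeR test, where 60 and 37 of them were tested, and none had an unadjusted p under 0.05 there. TTTGAA stood in 64% of the 50 other G2/M genes with a promoter window and in 6.25% of the 32 G1/S genes with one.

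**Figure D4:**
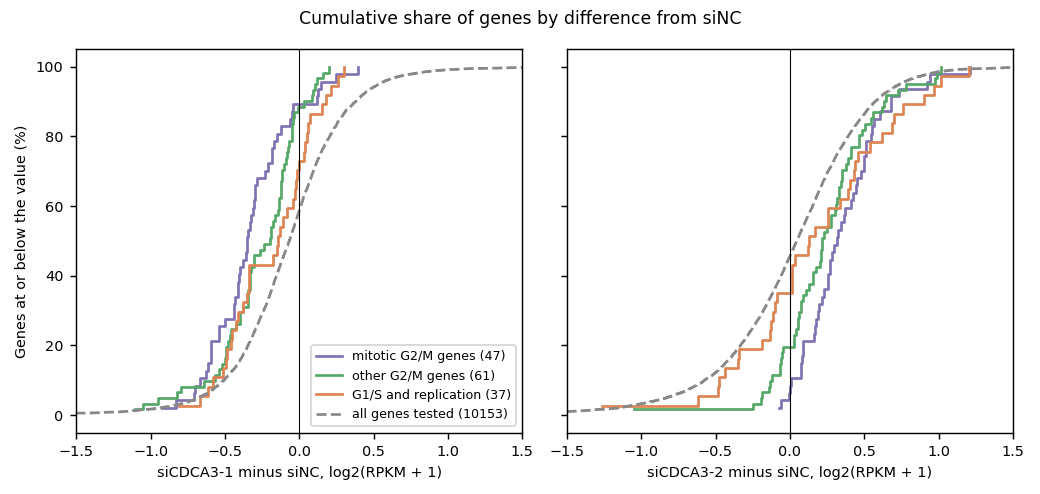
Cumulative share of genes (vertical, %) by their difference from siNC in log2(RPKM + 1), for siCDCA3-1 (left) and siCDCA3-2 (right), with 1 line per gene list. The line of the 47 mitotic G2/M genes lies left of that of all genes tested in siCDCA3-1 over most of its range and right of it in siCDCA3-2, with medians of -0.35 and 0.31.

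Named by the size of their differences among those with a mean RPKM of at least 5, 8 of these other genes were picked out, the 2 lowest and 2 highest in each siCDCA3 library. PCLAF, a clamp-associated factor of replication and repair, had 7.10 RPKM in siCDCA3-1 and 25.7 RPKM in siCDCA3-2, against 16.4 RPKM in siNC. SPC25, which belongs to the same kinetochore complex as NDC80 and NUF2, had 3.88 RPKM in siCDCA3-1 and 11.9 RPKM in siCDCA3-2, against 9.13 RPKM in siNC. Both followed the members' order of libraries. KPNA2, a nuclear import receptor, had 66.8 RPKM in siCDCA3-1 and 118 RPKM in siCDCA3-2, against 58.01 RPKM in siNC, high in siCDCA3-2 as in ANLN. CDC25B, the phosphatase that helps to activate CDK1, had 61.5 RPKM in siCDCA3-1 and 31.9 RPKM in siCDCA3-2, against 67.1 RPKM in siNC and so stood low in siCDCA3-2, where most members stood high. Among G1/S genes, CCNE2, a cyclin of S phase entry, had 3.90 RPKM in siCDCA3-1 and 16.3 RPKM in siCDCA3-2, against 6.504 RPKM in siNC. MCM6, a subunit of the replicative helicase, had 10.7 RPKM in siCDCA3-1 and 4.502 RPKM in siCDCA3-2, against 12.2 RPKM in siNC, low in siCDCA3-2. Its fellow subunits MCM3, with 24.4 in siCDCA3-1 and 18.4 in siCDCA3-2, against 19.6 in siNC, and MCM2, with 35.1 in siCDCA3-1 and 25.5 in siCDCA3-2, against 29.2 in siNC, were the highest of these lists in siCDCA3-1 by difference.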

How the data were processed

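Per the labels' protocols, total RNA was depleted of ribosomal RNA before library construction. Per the submitters' processing notes, Trimmomatic 0.36, FastQC, HISAT2 and HTSeq were used, and a human and a mouse build are named without roles; 98.6% of accessions matched human RefSeq genes. The authors deposited whole-number read counts and RPKM for 45006 RefSeq transcripts in each library, per the file headers; RPKM scales each count by transcript length and 1 total per library.

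The members, lists and alternatives were chosen with earlier results of these data known. In this work, edgeR 4.0.16 (R 4.3.3) compared siCDCA3 with siNC by its two-sided quasi-likelihood test after TMM scaling, for the 10153 genes averaging 1 RPKM or more, and p-values were adjusted by the Benjamini-Hochberg method. Each siCDCA3 library was set against siNC without a test as differences of log2(RPKM + 1), a pseudocount that understates changes of low genes. Standard errors were derived from the fold change and its F statistic. Sequencing without molecular identifiers means that intervals cover counting error only. The edgeR step was tested on simulated data. With the dispersion, the spread between libraries, at 0.13 (0.126 was fitted here), it recovered 99 of 100 genes changed 16-fold and 25 of 100 changed 4-fold. At a dispersion of 0.01 it recovered 100 of 100 of each. The members' ratios to siNC ran from 0.474 to 2.41, smaller changes than those simulated. DESeq2 1.42.0 and limma 3.58.1 were alternatives. Named in full were the cyclin-CDK genes, the 3 members lowest and highest in each siCDCA3 library, the 3 farthest apart between them and those on the same side of siNC in both, and, of the other lists, the 2 lowest and 2 highest genes per library. Overlapping exons were read from GENCODE on GRCh38, and 19 of 47 members overlap another gene. A leukocyte marker of the original list is not reported here.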

Additional observations from a re-analysis of the deposited data

How the results depend on the processing

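No member was called under any of the 6 alternative fits, which were DESeq2, limma, median-of-ratios scaling in edgeR, no filter, a mean RPKM of at least 5 and the longest transcript. The members' median fitted log2 fold change was 0.02, ranged from -0.04 to 0.03 over those fits, and ran from -0.29 to 0.27 when each siCDCA3 library was left out in turn, where no test remains. Leaving out the siNC library leaves no comparison. No paired analysis was possible because siNC has 1 library. The number of members lower in siCDCA3-1 was 39 of 47 under TMM, median-of-ratios and quantile scaling, and the number higher in siCDCA3-2 was 42 to 44 of 47. These scalings also move the differences of all genes tested, so the shares of 58.6% and 54.4% given earlier do not apply to these counts. The median in siCDCA3-1 was -0.27 under TMM and under median of ratios, and -0.26 under quantile scaling. The median in siCDCA3-2 was 0.26 under TMM. The median of siCDCA3-2 minus siCDCA3-1 was 0.54 under TMM, 0.55 under median of ratios and 0.58 under quantile scaling. With medians of GC and length bins subtracted, which was added after the data were seen, the medians were -0.20, 0.18 and 0.38. For TMM and median of ratios the alternative's own construction, a constant shift per library, gives the change; otherwise the cause was not tested. Pseudocounts of 0.1 and 0.5 and the longest transcript changed the direction of 0 members.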

Other observations

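Several transcripts of a gene with at least 100 counts in every library were listed for 31 of the 47 members, and these share most of their reads. All of a gene's transcripts had the direction of the chosen one in siCDCA3-1 for 31 of 31 genes and in siCDCA3-2 for 28 of 31. The exceptions in siCDCA3-2 were AURKB, BIRC5 and CENPA, whose differences from siNC there were near 0.

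Transcript length and the siCDCA3-1 difference were ordered alike among the members, with a Spearman's rho of 0.47 over 47 genes, and over all genes tested rho was 0.21. For the siCDCA3-2 difference, which uses the same siNC library, rho was 0.30 among the members and 0.10 over all genes tested. Of the 23 members shorter than the members' median length 23 were lower than siNC in siCDCA3-1, and of the 24 at or above it 19 were, where 65.8% of the shorter and 50.9% of the longer genes tested were lower. The medians were -0.40 for the shorter and -0.25 for the longer members, beside -0.13 and -0.01 for genes tested on either side of the same length. These are descriptions across genes of the same libraries, with no test.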
